A study of Homo sapiens with 6 samples.

Results

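Interferon regulatory factors (IRFs) were examined in SW780, a human bladder cancer cell line that stands for the luminal subtype in the study, after exposure to RC48. RC48 (disitamab vedotin) joins an ERBB2 antibody to monomethyl auristatin E, a microtubule inhibitor. The members were 6 genes chosen by symbol, IRF1, IRF2, IRF3, IRF5, IRF7 and IRF9. All 6 were among the 16390 genes listed in each library, and all 6 were among the 13055 genes tested. Bulk RNA was measured in 3 Control libraries and in 3 libraries of cells exposed to 25 µg/ml RC48. Both groups were the same cell line, the methods do not give the exposure time of this experiment, and neither the labels nor the methods say what the Control cells received. The labels do not say whether libraries of a group came from separate cultures, so p-values measure only the spread between these libraries. In bulk RNA, fewer cells with a transcript and less transcript per cell cannot be told apart.

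IRFs are transcription factors that share a DNA-binding domain and recognise interferon-stimulated response elements (ISRE) and related sites. IRF3 and IRF7 are activated by phosphorylation downstream of nucleic acid sensors and switch on type I interferon genes, and IRF5 acts downstream of Toll-like receptors. IRF9 binds DNA for the complex ISGF3, in which STAT2 is a partner after interferon signalling, and IRF1 drives antigen presentation and chemokine genes that IRF2 can restrain at the same sites. IRF1, IRF7 and IRF9 are themselves known as interferon-inducible genes. The known activity of IRF3 and IRF5 is set largely on the protein, so an RNA level does not measure it.

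Sequence upstream of an annotated transcription start is shown for the members whose windows held a searched motif. It was searched because STAT, ISGF3 and NF-κB sites are the known inputs of IRF genes. RefSeq promoter windows (GRCh38.p14) were matched for 3 members, IRF1 with 1 window, IRF5 with 4 and IRF9 with 1. IRF2, IRF3 and IRF7 had no window there, so their promoters were not searched. Motifs were searched on both strands in the 250 bases before the start and are in capitals: the STAT site GAS (TTCNNNGAA), the ISRE core (GAANNGAAA) and the 10-letter NF-κB motif. The IRF1 stretch, chr5:132490799-132491023 on the minus strand, held a GAS match followed by an NF-κB match. The IRF5 stretch, chr7:128940464-128940669 on the plus strand, held an ISRE match that reads on the other strand. The 2 short IRF9 sites, chr14:24161196-24161216 and chr14:24161223-24161243 on the plus strand, are a GAS match and an ISRE match. Bases that GENCODE 29 gives to an untranslated region are left out, other than the sites themselves and 6 bases on each side for IRF9.
IRF1: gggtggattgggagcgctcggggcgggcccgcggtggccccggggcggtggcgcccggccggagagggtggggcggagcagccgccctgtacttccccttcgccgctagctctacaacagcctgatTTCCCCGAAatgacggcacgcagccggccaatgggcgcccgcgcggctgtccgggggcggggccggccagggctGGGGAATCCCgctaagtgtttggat
IRF5: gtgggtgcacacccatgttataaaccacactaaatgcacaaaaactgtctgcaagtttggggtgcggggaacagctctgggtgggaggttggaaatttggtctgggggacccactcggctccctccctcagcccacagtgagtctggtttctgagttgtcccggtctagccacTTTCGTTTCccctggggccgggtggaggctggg
IRF9 GAS: cgtgatTTCTGGGAAaaggcc
IRF9 ISRE: ggaggaGAACTGAAActtagg

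The IRF1 matches ended 115 and 40 bases before the annotated start, the IRF5 match 24 bases before it, and the IRF9 matches 54 and 27 bases before it. The NF-κB letters of IRF1 matched on both strands at the same bases, and no match overlapped one of another motif. Of 34943 promoter windows of that length, 6.56% held a GAS match, 6.56% an ISRE match and 9.95% an NF-κB match. A GAS match together with an NF-κB match, as in IRF1, was found in 0.541% of windows, and a GAS match together with an ISRE match, as in IRF9, in 0.635%. Only the pairs that these members held were counted, so the shares do not show that the pairs are unusual. The other 3 IRF5 windows held none of these letters. These matches describe sequence and are not evidence of binding.

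The 6 genes lie on 6 chromosomes. In GRCh38.p14, IRF1 spans chr5:132481609-132490773, IRF2 chr4:184387729-184474550, IRF3 chr19:49659572-49665857 and IRF7 chr11:612555-615950, all on the minus strand. IRF5 spans chr7:128937032-128950038 and IRF9 chr14:24161265-24166565, both on the plus strand. In GENCODE 29, IRF1 overlaps the antisense genes C5orf56 and AC116366.3, and IRF3 overlaps BCL2L12, on the opposite strand, over 734 bases. IRF2 overlaps the intronic gene AC099343.2 on its own strand over 686 bases. It also overlaps the small nucleolar RNA gene RF00152, on the opposite strand, over 84 bases. IRF9 lies within a readthrough gene, AL136295.5, that shares its strand over 5513 bases. The counting was not stated to use strand, so reads from these overlaps could not be assigned with certainty. IRF1 and IRF3 had estimated counts that were not whole numbers, which marks reads that were divided between genes, and IRF2, IRF5, IRF7 and IRF9 had whole counts.

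Estimated counts summed to between 16453233 and 17988030 per library. The luminal markers GATA3, FOXA1, PPARG and ERBB2 were present in Control at means of 147 to 235 CPM (counts scaled by library size), UPK1A and UPK2 at 16.4, KRT20 at 1.98 and UPK3A at 0.0965. All 8 summed to 778 to 793 CPM in Control and 709 to 895 in RC48. KRT20 was lower in RC48 at 0.667 CPM (log2 -1.55, edgeR adjusted p = 0.0489), a call that was lost without Control replicate 1, 2 or 3 (edgeR adjusted p of 0.215 to 0.232). The 5 basal markers, of which CD44 and TP63 made up most at 330 and 183 CPM in Control, summed to 521 to 528 CPM in Control and 438 to 523 in RC48, and none was called. Of 12 leukocyte markers 9 were listed. Their summed level was 37.7 to 39.7 CPM in Control and 47.8 to 85.3 in RC48, and the pan-leukocyte gene PTPRC was at 0 in Control and at 1 count at most in RC48. Most of the Control sum was CD68 (16.8 CPM), CORO1A (15.4 CPM) and LAPTM5 (5.24 CPM). All 7 tested leukocyte markers were higher in RC48, with a median log2 fold change of 0.65, and 0.49 after the GC correction described below. In 6 of them every RC48 library was above every Control library, as in 17.4% of all tested genes. Of these markers 1 was called, the integrin gene ITGAM, with 5 counts in the Control group and 188 in the RC48 group (edgeR adjusted p = 0.0074, and 0.0718 without Control replicate 3). The part of these markers in the results was not tested. The 8 listed of 9 fibroblast and endothelial markers summed to 472 to 505 CPM in Control and 469 to 580 in RC48, most of it COL3A1 and LUM, with DCN and PDGFRB near 0. RC48 replicates 1 and 3 carried a trend with the GC content of transcripts. Across 13000 genes, Spearman's rho of the log2 ratio to Control on GC content was 0.737 in RC48 replicate 1, -0.0113 in replicate 2 and 0.567 in replicate 3. Genes are not independent, so these are given as a description. Because 5 of the 6 members had a GC content above 56%, a second fit that removed the GC trend of each library is reported beside the values of each member. Control replicates 1 and 2 were much closer to each other (chi-square per degree of freedom 1.47, near 1 when only sampling noise separates libraries) than any other pair (9.02 to 147).

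IRF9 and IRF7 rose after exposure to RC48, and the other 4 members did not pass the test. By edgeR's quasi-likelihood test, 2 of 6 members were called at an adjusted p under 0.05, both higher in RC48, whereas 288 of 13055 genes (2.21%) were called, 258 higher and 30 lower. After the GC correction the same 2 members were called, against 960 genes (7.35%). In 5 of 6 members, every RC48 library was above every Control library, a pattern that 17.4% of all tested genes showed. The median log2 fold change of the 6 members was 0.54 against 0.02 over all genes tested, and 0.25 against -0.02 after the GC correction. With 1 library left out the number of members called was 1 without Control replicate 1, Control replicate 2 or RC48 replicate 3, 0 without Control replicate 3, 3 without RC48 replicate 1 and 4 without RC48 replicate 2. In the same fits the share of all tested genes called was 0.537%, 0.591%, 0.706%, 0.515%, 6.82% and 28.3%, so the counts of members moved with the counts of all genes. The plot of CPM by library shows the 6 genes.

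**Figure D1:**
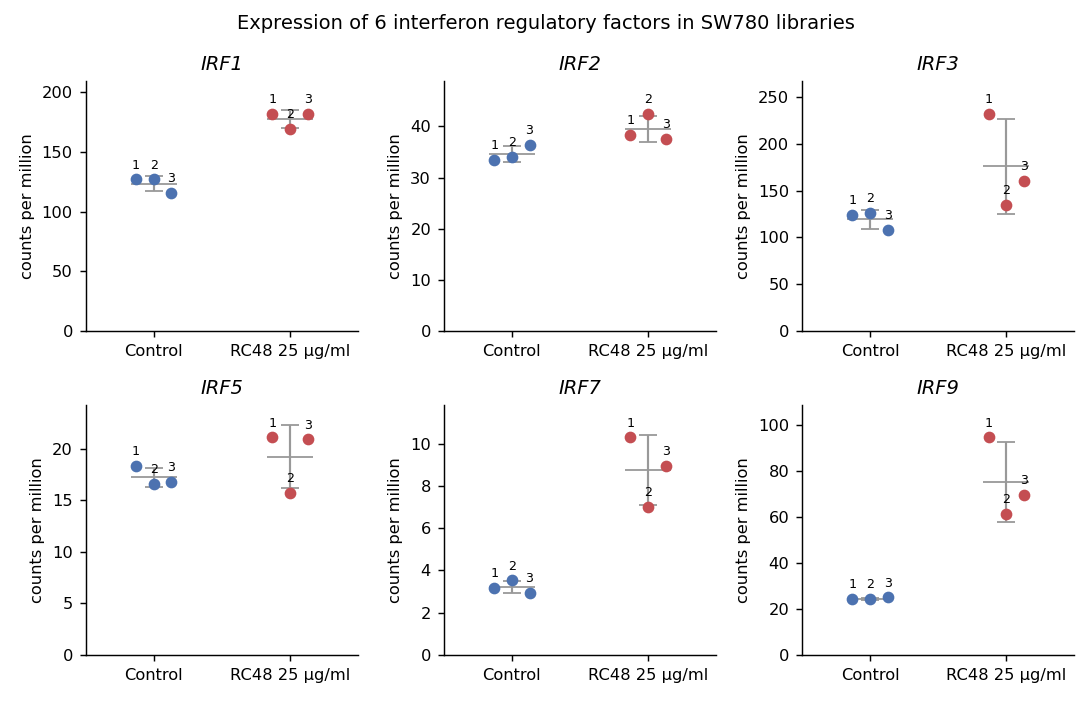
CPM, counts scaled by library size (vertical axes, from 0), of 6 interferon regulatory factors in Control and RC48 libraries of SW780. Points are libraries with their replicate number, and bars are the group mean and SD (n = 3). IRF7 and IRF9 are separated by a wide gap, IRF1, IRF2 and IRF3 by a narrower one, and the IRF5 groups overlap.

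Among the interferon-inducible members, IRF9 showed the largest change. It was at 24.2, 24.3 and 25 CPM in Control replicates 1, 2 and 3, and at 94.7, 61.2 and 69.8 CPM in RC48 replicates 1, 2 and 3. The 3 Control libraries were nearly the same, while RC48 replicate 1 stood above the other two, and the lowest RC48 library was still 2.50-fold above the Control mean. The fold change was 3.07 (log2 1.62, SE 0.18, edgeR adjusted p = 0.00446). After the GC correction it was 2.57 (log2 1.36, edgeR adjusted p = 6.76e-05), with ratios of 1.47, 1.28 and 1.32 on the log2 scale in replicates 1, 2 and 3. The correction brought the 3 libraries closer together, and without RC48 replicate 1 the uncorrected log2 fold change was 1.41 (edgeR adjusted p = 2.96e-06). Without Control replicate 3 the call was lost at a similar size (log2 1.63, edgeR adjusted p = 0.0645). With the GC correction, IRF9 was called whichever of the 6 libraries was left out, at edgeR adjusted p of 0.00186 or less.

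IRF7, the inducible partner of IRF3 and a driver of type I interferon transcription, was the least abundant member and rose next most. It had 55, 61 and 50 counts in Control and 170, 123 and 161 in RC48, or 3.18, 3.53 and 2.94 against 10.3, 7.02 and 8.96 CPM. The lowest RC48 count (123, exact 95% Poisson interval 102 to 147) and the highest Control count (61, 46.7 to 78.4) had intervals that did not meet, and these intervals cover counting error only. The fold change was 2.72 (log2 1.44, SE 0.20, edgeR adjusted p = 0.0117), and 2.18 after the GC correction (log2 1.12, edgeR adjusted p = 0.00202). IRF7 had the highest GC content of the 6 at 66.9%, above 98.6% of the genes tested. In RC48 replicate 2, the library without a GC trend, IRF7 was 2.18-fold above the Control mean. The uncorrected call was lost without Control replicate 1, 2 or 3 or without RC48 replicate 3, with log2 fold changes of 1.38 to 1.51 and edgeR adjusted p of 0.0764 to 0.108. With the GC correction it was kept in each of these fits, at edgeR adjusted p of 0.0213 or less.

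IRF1, an activator of MHC class I and chemokine genes that is known to respond to interferon-γ and NF-κB, differed by less than IRF7 and IRF9 and did not pass the test. Its 3 Control libraries were at 127, 127 and 116 CPM and its RC48 libraries at 182, 169 and 182 CPM. The groups did not overlap, and the RC48 libraries differed among themselves by less than the gap to Control. The log2 fold change was 0.53 (SE 0.11, edgeR adjusted p = 0.0583, unadjusted p = 0.00139), a fitted difference of 44.4%, and 0.30 after the GC correction (edgeR adjusted p = 0.117). DESeq2 called it (log2 0.52, adjusted p = 0.00118), as did limma on log2(TPM+1) over the 5 libraries with deposited TPM (log2 0.44, adjusted p = 0.0326). It was also called without RC48 replicate 1 (edgeR adjusted p = 0.0078) and without RC48 replicate 2 (edgeR adjusted p = 0.022), so the call for IRF1 depended on the tool and the libraries. In the GC-corrected values RC48 replicate 1, the library with the steepest trend, was 0.09 above Control on the log2 scale, against 0.41 and 0.38 in replicates 2 and 3.

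IRF2, the antagonist that shares the binding sites of IRF1, was at 33.5, 34.1 and 36.4 CPM in Control and 38.4, 42.5 and 37.6 CPM in RC48. The groups did not overlap, but the highest Control and the lowest RC48 library were only about 1 CPM apart. The log2 fold change was 0.19 (SE 0.12, edgeR adjusted p = 0.358), and 0.17 after the GC correction. With limma on log2(TPM+1) over 5 libraries the difference was -0.01, so no direction is given for IRF2. Its GC content, 48.8%, was the lowest of the 6.

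IRF3, the constitutive factor downstream of STING, MAVS and TRIF, varied most between RC48 libraries. It was at 124, 126 and 108 CPM in Control and at 232, 135 and 160 CPM in RC48. RC48 replicate 1 accounted for most of the spread, and replicate 2 was only 1.13-fold above the Control mean. The log2 fold change was 0.55 (SE 0.20, edgeR adjusted p = 0.221). It was 0.21 after the GC correction (edgeR adjusted p = 0.18), when the ratios of replicates 1, 2 and 3 came to 0.32, 0.13 and 0.17 on the log2 scale. The uncorrected log2 fold change was 0.30 without RC48 replicate 1. It was 0.71 without RC48 replicate 2, and IRF3 was called only then (edgeR adjusted p = 0.0281) and by limma on TPM, a fit that lacks replicate 2 (log2 0.53, adjusted p = 0.0325).

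IRF5, a factor best known from Toll-like receptor signalling in myeloid cells, did not separate the groups. It was at 18.3, 16.6 and 16.8 CPM in Control and at 21.1, 15.7 and 20.9 CPM in RC48. RC48 replicate 2 lay below all 3 Control libraries and the other 2 above them. The log2 fold change was 0.16 (SE 0.16, edgeR adjusted p = 0.527), and its sign turned after the GC correction (-0.16, edgeR adjusted p = 0.405). An exact permutation test on log2 CPM, two-sided, gave p = 0.4. For the other 5 members the same exact permutation test gave p = 0.1, the smallest value that 3 libraries against 3 allow.

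The GC trend was measured at each member's own GC content. Over the tested genes in the GC group of IRF1 and IRF9 (56.1% to 59%), the median log2 ratio to Control was 0.51 in RC48 replicate 1, 0.00 in replicate 2 and 0.19 in replicate 3. In the group of IRF3 and IRF5 (59% to 62.1%) it was 0.63, 0.01 and 0.23, and in the group of IRF7 (62.1% to 74.7%) 0.67, 0.01 and 0.25. IRF7 and IRF9 lay above the median of their group in every RC48 library, at 1.12 and 1.32 on the log2 scale in the library without a trend. IRF1 was 0.57 in replicate 1, close to the median of its group, and 0.46 and 0.57 in replicates 2 and 3. IRF5 was at 0.29, -0.13 and 0.28, below its group in replicates 1 and 2. The plot of log2 ratio on GC content shows the 6 members beside this trend. What produced the trend was not tested.

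**Figure D2:**
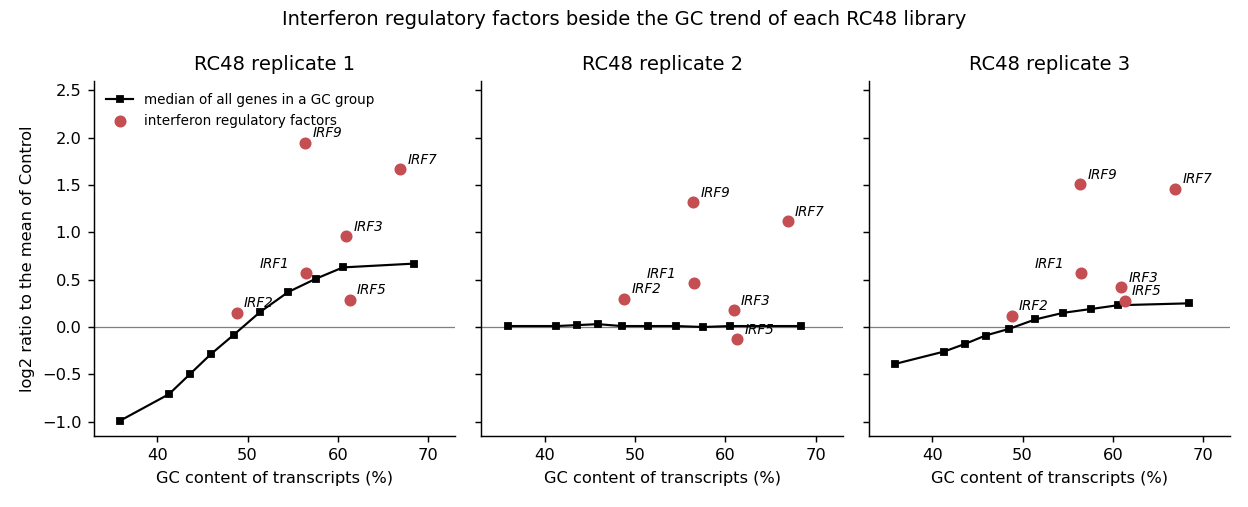
RC48 libraries against the Control mean, as a log2 ratio (vertical axis), against the GC content of transcripts in percent (horizontal axis). Black squares are the medians of 10 groups of 1300 genes, and red points are the 6 interferon regulatory factors. The trend is steep in replicate 1, absent in replicate 2 and moderate in replicate 3, and IRF7 and IRF9 stand above it in all 3.

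Levels between genes were compared in TPM, which is scaled to transcript length. In Control, IRF3 was highest with 171, 172 and 163 TPM, followed by IRF1 with 66.9, 66.7 and 66.7 TPM. IRF9 (31.5, 31.4 and 35.6 TPM) and IRF2 (29.4, 29.9 and 35.0 TPM) had overlapping ranges, with IRF9 slightly higher within each Control library. IRF5 had 12.4, 11.2 and 12.3 TPM, and IRF7 was lowest with 3.34, 3.72 and 3.36 TPM. The constitutive factor IRF3 therefore made up 51.6% to 54.7% of the summed TPM of the 6 members in Control, and IRF7 1.06% to 1.18%. The order of the Control libraries was kept in RC48 replicates 2 and 3 and changed in replicate 1. IRF9 had 107 and 87.7 TPM in RC48 replicates 1 and 3 and a computed 82.8 TPM in replicate 2, and was well above IRF2 in every RC48 library. It exceeded IRF1 (87.6 TPM in replicate 1, 93.9 in replicate 3, a computed 93.0 in replicate 2) in replicate 1 alone. IRF7 remained the lowest at 9.7, 9.2 and a computed 7.7 TPM, below IRF5 at 13.1, 13.6 and a computed 11 TPM. The plot of TPM by library shows this order.

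**Figure D3:**
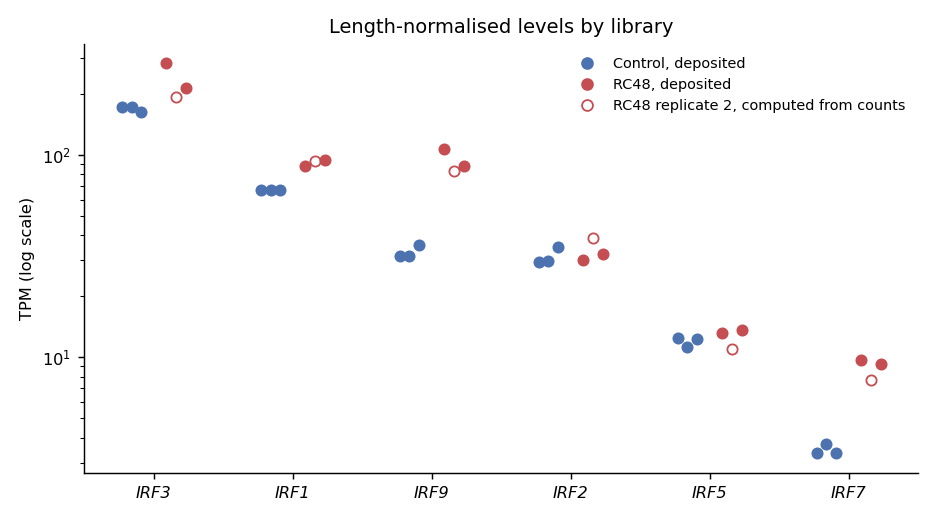
TPM of 6 interferon regulatory factors by library, on a log axis, in the order of their Control means. Filled points are deposited values of 3 Control and 2 RC48 libraries, and the open point is RC48 replicate 2, computed from its counts. IRF9 rises from the level of IRF2 to near that of IRF1, and IRF7 approaches IRF5 from below.

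Ratios between functional partners were compared within libraries, where library size cancels. The log2 CPM ratio of IRF7 to IRF3 went from -5.19 ± 0.07 (SD, n = 3) in Control to -4.29 ± 0.17 (SD, n = 3) in RC48, a difference of 0.90 that was also 0.90 after the GC correction. The ratio of IRF9 to STAT2, its ISGF3 partner, went from -1.85 ± 0.12 to -0.95 ± 0.25 (SD, n = 3), a difference of 0.89 before and 0.78 after the correction. In TPM the IRF9 to STAT2 ratio was 0.885, 0.927 and 0.794 in Control and 1.87, 1.47 and a computed 1.42 in RC48 replicates 1, 3 and 2, so that IRF9 passed from below STAT2 to above it. The ratio of IRF1 to IRF2 moved less, from 1.83 ± 0.14 to 2.17 ± 0.16 (SD, n = 3), and the difference of 0.34 shrank to 0.12 after the correction. In each of the 3 ratios the groups did not overlap. The two-sided exact permutation test gave its smallest possible p of 0.1 for each (Benjamini-Hochberg adjusted p = 0.1 over 3 ratios), so this design could not place any of them past 0.05.

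The lymphoid factor IRF4 had 3 counts in the Control group and 1 in the RC48 group. IRF8 was not among the listed genes.

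Other genes of the pathway are described by role, by counts and medians without a test of the list. Of 97 tested genes on the lists other than the 6 members, 32 were called and all 32 were higher in RC48 (2.21% of all tested genes were called), and after the GC correction 47 were higher and 1 was lower (7.35% of all tested genes). The count was 15 without Control replicate 1, 2 or 3, 16 without RC48 replicate 3, 51 without RC48 replicate 1 and 63 without RC48 replicate 2, in fits that called 68 to 78, 93, 897 and 3726 of all tested genes. Upstream of the IRFs, 1 of 17 sensors, adaptors and kinases was called, IKBKE, which encodes the kinase IKKε that phosphorylates IRF3 and IRF7. It was at 14.3, 14.8 and 15.1 CPM in Control and 47, 32 and 31.5 CPM in RC48 (log2 1.32, SE 0.19, edgeR adjusted p = 0.0128). The call for IKBKE was lost without any 1 of the Control libraries (edgeR adjusted p of 0.0979 to 0.112) and kept with the GC correction (log2 1.01). TBK1, the other kinase of this step, was at 68.0 CPM in Control and 53.3 CPM in RC48 (edgeR adjusted p = 0.389). Its groups overlapped, and its log2 fold change was -0.35, and 0.04 after the GC correction. After the GC correction 5 of the 17 were called, all higher, IKBKE, IFIH1, DDX58, TRAF3 and MYD88. The median log2 fold change of the 17 was 0.19.

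Among 9 receptor subunits, Janus kinases and STATs of interferon signalling, 1 was called, STAT2. It was at 85.6, 81.6 and 98.4 CPM in Control and 150, 134 and 146 CPM in RC48 (log2 0.70, SE 0.12, edgeR adjusted p = 0.0346, and log2 0.57 with adjusted p = 0.00887 after the GC correction). Its call was lost without Control replicate 1, 2 or 3 or RC48 replicate 3 (edgeR adjusted p of 0.104 to 0.251). IRF9 thus had a log2 fold change of 1.62 and its partner STAT2 one of 0.70, and the median of the 9 genes on the list was 0.44. After the GC correction 3 of the 9 were called, all higher. Of the interferon genes on the list, 4 of 9 were listed (IFNL1, IFNL2, IFNL3 and IFNW1), each with 0 to 2 counts in a library and none tested.

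Of 8 negative regulators, USP18 was called, a protease that removes ISG15 and limits signalling at the interferon receptor. It was at 8.09, 8.92 and 8.54 CPM in Control and 15.7, 15.4 and 17.6 CPM in RC48 (log2 0.93, SE 0.14, edgeR adjusted p = 0.0157, and log2 0.82 with adjusted p = 0.00376 after the GC correction). The call was lost without Control replicate 1, 2 or 3 and without RC48 replicate 3 (edgeR adjusted p of 0.12 to 0.163). IRF2BPL, named for its likeness to an IRF2-binding protein, had overlapping groups (log2 -0.10) and was called lower after the GC correction (-0.43, edgeR adjusted p = 0.0466).

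Known targets of these factors rose in part. Of 28 genes with ISRE elements, targets of ISGF3 and of the IRFs, 16 were called, all higher, with a median log2 fold change of 1.01, and after the GC correction 21 were called, with a median of 0.85. The 3 with the largest fold change were IFI27 (3.12), RSAD2 (2.74) and IFI44L (2.67), each with separate groups. Of 24 tested genes on the list of IRF1 targets, 5 were called, all higher, with a median of 0.48, and after the GC correction 8 were called. CXCL10, a chemokine for T cells, had 1 or 2 counts in each Control library and 28, 50 and 37 counts in RC48 (fitted log2 fold change 4.71, edgeR adjusted p = 0.00167, and 5.09 after the GC correction). TAP1, a peptide transporter, had a log2 fold change of 0.81, and 0.62 after the GC correction. HLA-B had 0.95, and 0.66 after the correction, which is uncertain because class I genes share reads. TAP1 and HLA-B lost their calls without Control replicate 1, 2 or 3 or RC48 replicate 3 (edgeR adjusted p of 0.0797 to 0.147). The immunoproteasome genes PSMB8, PSMB9 and PSMB10 were not called (edgeR adjusted p of 0.154 to 0.253), at log2 fold changes of 0.36, 0.93 and 0.47. In each of them every RC48 library was above every Control library, as in 17.4% of all tested genes. After the GC correction their fold changes were 0.15, 0.72 and 0.13, again without a call. NF-κB feedback genes, chosen because NF-κB is a known input of IRF1, were called in 8 of 10, and in 9 after the GC correction, with a median of 1.95 before it, and TNFAIP3 (3.54), BIRC3 (3.01) and RELB (2.96) had the largest fold changes. The shares called on these lists stand beside 2.21% of all tested genes. The plot of fold changes by role shows each list. What moved the targets was not tested.

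**Figure D4:**
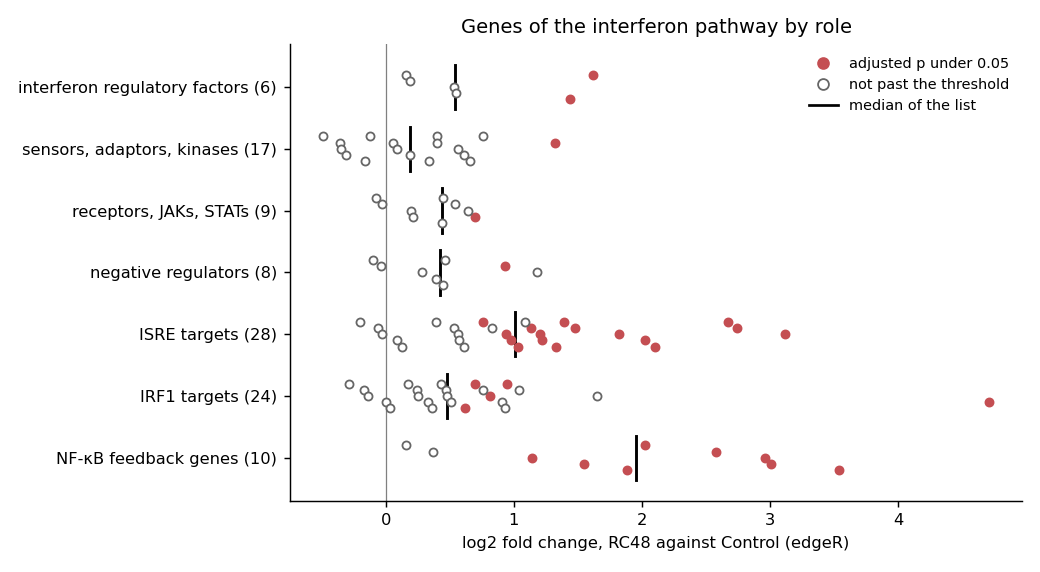
Log2 fold change of RC48 against Control by edgeR (horizontal axis) for the interferon regulatory factors and for 6 lists of pathway genes, with the number tested in brackets. Filled points passed an adjusted p of 0.05, open points did not, and vertical lines are medians. The median of the regulatory factors (0.54) lies above those of the receptor list (0.44) and IRF1 targets (0.48) and below that of ISRE targets (1.01). After the GC correction, which is not drawn, it is 0.25, below those of the same lists (0.29, 0.43 and 0.85).

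The genes whose log2 CPM followed the 2 called members most closely over the 6 libraries were found by Pearson's r, which is given as a description because the libraries of a group share the exposure and 2 of the RC48 libraries carry a GC trend. Among 9996 other genes with a mean of at least 10 CPM, those nearest to IRF7 were PPP2R5B (0.9988), HLA-B (0.9987) and NFKB2 (0.9980). PPP2R5B encodes a regulatory subunit of protein phosphatase 2A, and NFKB2 encodes an NF-κB subunit. Those nearest to IRF9, among 9995 genes, were the tetraspanin CD82 (0.9995), the ubiquitin ligase TRIM31 (0.9990) and the transporter SLCO3A1 (0.9989). Of these 6 genes, SLCO3A1 alone was not called (log2 0.60, edgeR adjusted p = 0.0503), and it was called after the GC correction (log2 0.40, edgeR adjusted p = 0.0181). The calls for PPP2R5B, CD82 and TRIM31 were lost without Control replicate 2 or 3 (edgeR adjusted p of 0.0506 to 0.203).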

How the data were processed

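RNA of 3 Control and 3 RC48-exposed SW780 samples was sequenced by the authors, and reads were filtered with SOAPnuke, mapped with Bowtie2 and counted with RSEM. The submitters' processing notes name hg38, Bowtie2, RSEM and limma. The deposited estimated counts per gene are not normalized, and were rounded here to whole numbers. The deposited TPM values were made by the authors from the same reads. RC48 replicate 2 had no TPM file here, so its TPM was computed from counts and the effective lengths of the other libraries. Checked on RC48 replicate 3, these steps differed from the deposited TPM by a median of 0.0368 in absolute log2 units over 11960 genes. TPM values entered limma for the other 5 libraries only.

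Genes were filtered with filterByExpr, normalized by TMM and tested with edgeR 4.0.16 (quasi-likelihood, Benjamini-Hochberg over all genes tested, threshold 0.05) in R 4.3.3, and CPM are TMM-scaled. The study used limma on log2(TPM+1), run here as an alternative because 1 library lacks TPM. GC content was the median over GENCODE 29 transcripts (99.4% of genes), and the correction put the loess trend (span 0.3) of each library into edgeR as an offset. Ratios used a prior count of 1. Other alternatives were DESeq2 1.42.0, RLE factors, no scaling beyond library size, all genes unfiltered, a minimum of 10 counts in each library, limma 3.58.1 on log2(TPM+0.1), a replicate block, and each library left out in turn, and with the GC correction the latter was added after seeing the data. Tests were checked on simulated data. Python 3.11.15, pandas 2.3.3, scipy 1.17.1 and matplotlib 3.10.9 made the summaries and figures.

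The members, lists and tests were chosen with earlier results of these data known. Named are the members, IRF4, IRF8 and STAT2, up to 3 called genes per list with the largest fold change and at least 1 CPM, and 3 nearest genes per called member. Other genes that the rule named are not reported here. TBK1, IFIH1, DDX58, TRAF3, MYD88, IRF2BPL, the immunoproteasome and interferon genes were named after their values were seen. The labels do not say whether replicate numbers pair libraries. Correlations of the deviations of same-numbered libraries were -0.006, -0.123 and 0.012. They cannot decide pairing, because the deviations of the RC48 libraries also hold the GC trend.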

Additional observations from a re-analysis of the deposited data

How the results depend on the processing

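Over the 16 alternatives, IRF9 was called in 15 and IRF7 in 12, IRF1 in 5, IRF3 in 3, and IRF2 and IRF5 in 0. The number of members called was 4 by limma on either log2(TPM+1) or log2(TPM+0.1), which lack RC48 replicate 2, and 0 to 4 with 1 library left out, 0 without Control replicate 3 and 4 without RC48 replicate 2. IRF2 turned to -0.01 in both limma fits. IRF5 turned to -0.16 with the GC correction, to -0.17 with the replicate block and GC correction together, and to between -0.26 and -0.07 with the GC correction and 1 library left out (-0.13, -0.21, -0.16, -0.07, -0.16 and -0.26). The count of all called genes was 960 with the GC correction, 642 with it and the replicate block, 744 by DESeq2, 2894 and 2829 by limma at pseudocounts of 1 and 0.1, and 68 to 3726 with 1 library left out (3726 without RC48 replicate 2, 897 without RC48 replicate 1). With the GC correction and 1 library left out it was 287 to 2209 (1596 without RC48 replicate 1). Pathway genes called were 52 in both limma fits, 15 to 63 with 1 library left out, and 32 to 60 with the GC correction as well (60 and 54 without RC48 replicate 1 and 2). The cause of these shifts was not tested. Because the replicate numbers are not stated to pair libraries, the replicate block was only an alternative. The block fit had 2 members, 331 genes and 34 pathway genes called, and IRF9 at a log2 fold change of 1.59. It left each member on its side of the threshold, while STAT2 and PPP2R5B lost their calls (edgeR adjusted p = 0.0572 and 0.0566). STAT2 also lost its call with library sizes alone (edgeR adjusted p = 0.0513). With 1 library of a group left out, as with all libraries, the edgeR fits assumed a spread shared by both groups.

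The number of libraries, 3 a group, and for IRF7 the 50 to 61 counts in a Control library limit precision. Interferon genes at 0 to 2 counts were not detectable beyond this depth.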
